A study of Mus musculus with 25 samples.

Results

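Oxidative phosphorylation subunits are the nuclear-encoded proteins of the 5 enzyme complexes of the inner mitochondrial membrane. They were taken here by gene symbol, updated by Entrez ID from the array's annotation. Symbols beginning with Nduf, a subunit letter and a number gave complex I, and Sdha to Sdhd gave complex II. Those beginning with Uqcr gave complex III, Cox5 to Cox8 with a letter complex IV, and Atp5 complex V, the ATP synthase. Assembly factors of the Ndufaf series and symbols with -ps, which mark pseudogenes, were left out. Copies under other symbols, among them Atp5l2, Ndufb4b, Ndufb4c and Ndufa11b, stayed in. Only probe sets with 1 symbol were used, with 1 probe set per gene, the brightest over all arrays. This gave 82 genes of 30142 on the array: 37 of complex I, 4 of complex II, 8 of complex III, 16 of complex IV and 17 of complex V. The choice used no comparison between groups. Of these, 80 passed the brightness limit and were tested among 20260 genes. The limit was a mean log2 intensity of 4.52. Cox8b (3.97), a heart and muscle form of cytochrome c oxidase subunit 8, and Ndufa4l2 (4.37), a hypoxia-induced relative of Ndufa4, lay under it and were not tested.

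Complexes I and II pass electrons from NADH and succinate to ubiquinone, complex III passes them on to cytochrome c, and complex IV hands them to oxygen. Complexes I, III and IV pump protons while they do so, and complex V uses the proton gradient to make ATP. Sensory neurons of the dorsal root ganglion keep up long axons and steep ion gradients and depend heavily on this supply. Most subunits are made from nuclear genes that share a set of activating factors, among them NRF-1, the ETS factor GABP, YY1 and the ERR receptors, while a few core subunits of complexes I, III, IV and V come from the mitochondrial genome.

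The 25 arrays measured RNA of lumbar dorsal root ganglia, levels L3 to L5, from male C57BL/6 mice. Naive mice had no operation. Sham mice had a control operation, and DMM mice had the medial meniscus of the right knee destabilized, a surgical model of osteoarthritis. Surgery was done at 10 weeks of age and tissue was taken 4, 8 or 16 weeks later, at 14, 18 or 26 weeks of age, with naive mice of the same ages. The labels name no transgene or drug for any group. There were 3 arrays in every group except sham mice at 8 weeks, which had 1, because the submitters left out the others for quality. That array was kept in the fit and is given as a value only. Neither pooling nor the number of mice behind an array is stated, nor that arrays came from separate mice, so p-values measure the spread between arrays, which may be technical.

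All 16 sensory neuron markers measured, among them Rbfox3 and Tubb3, lay above the brightness limit. Of 18 skeletal muscle markers 12 did so, 7 of them above the negative controls, and of 12 fat cell markers 5 did so. Adipoq, Plin1, Cidec, Ucp1, Lep, Retn and Elovl3 were under the limit. In bulk tissue, fewer cells of a type and less RNA per cell cannot be told apart. Naive replicate 1 at 16 weeks had the lowest member mean of all 25 arrays, so the main values of the comparisons between 16 week naive mice and the 4 week, sham or DMM groups are given with and without it.

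Differences are on the log2 scale of the deposited values, so that -1 is a halving. Each is given ± its standard error from limma, which fitted 1 mean per group over all 25 arrays. An adjusted p is limma's two-sided p adjusted by the Benjamini-Hochberg method over 20260 genes, with a threshold of 0.05. The brightness of different probe sets does not rank their transcripts, so levels are compared only for 1 probe set across arrays. Per complex, the brightest members were Ndufb9, Sdhd, Uqcrb, Cox6a1 and Atp5md, and those with the largest SD over the 25 arrays were Ndufa11b (0.239), Sdhc (0.148), Uqcr10 (0.174), Cox5a (0.222) and Atp5l (0.240). The median moderated SD between arrays of a group was 0.0996 over the 80 members and 0.119 over all genes tested. The members' probe sets were also brighter, with a median level of 10.9 against 7.31, and SDs at matched brightness were not compared.

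The mean of the 80 members, as the deviation from each gene's own mean over the 25 arrays, was 0.090 ± 0.017 (SD, n = 3) in naive mice at 4 weeks, 0.011 ± 0.055 at 8 weeks and -0.086 ± 0.077 at 16 weeks. In sham mice it was -0.021 ± 0.024 at 4 weeks, -0.046 on the single array at 8 weeks and 0.062 ± 0.055 at 16 weeks. In DMM mice it was 0.050 ± 0.039, -0.076 ± 0.045 and -0.013 ± 0.045 at the same times. Naive mice at 4 weeks were the highest group. Naive mice at 16 weeks were the lowest only with replicate 1: without it their mean was -0.042 ± 0.017 (SD, n = 2), above that of DMM mice at 8 weeks. Sham mice were below naive mice at 4 weeks and above them at 16 weeks, with or without that array. The mean of the 17 complex V genes in naive mice was 0.127 ± 0.001 (SD, n = 3) at 4 weeks and -0.139 ± 0.042 at 16 weeks. Over all genes tested, the mean deviation on the naive arrays was 0.056, 0.035 and 0.045 at 4 weeks. It was -0.046, -0.016 and -0.021 at 16 weeks, so part of the members' shift was common to all genes.

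**Figure D1:**
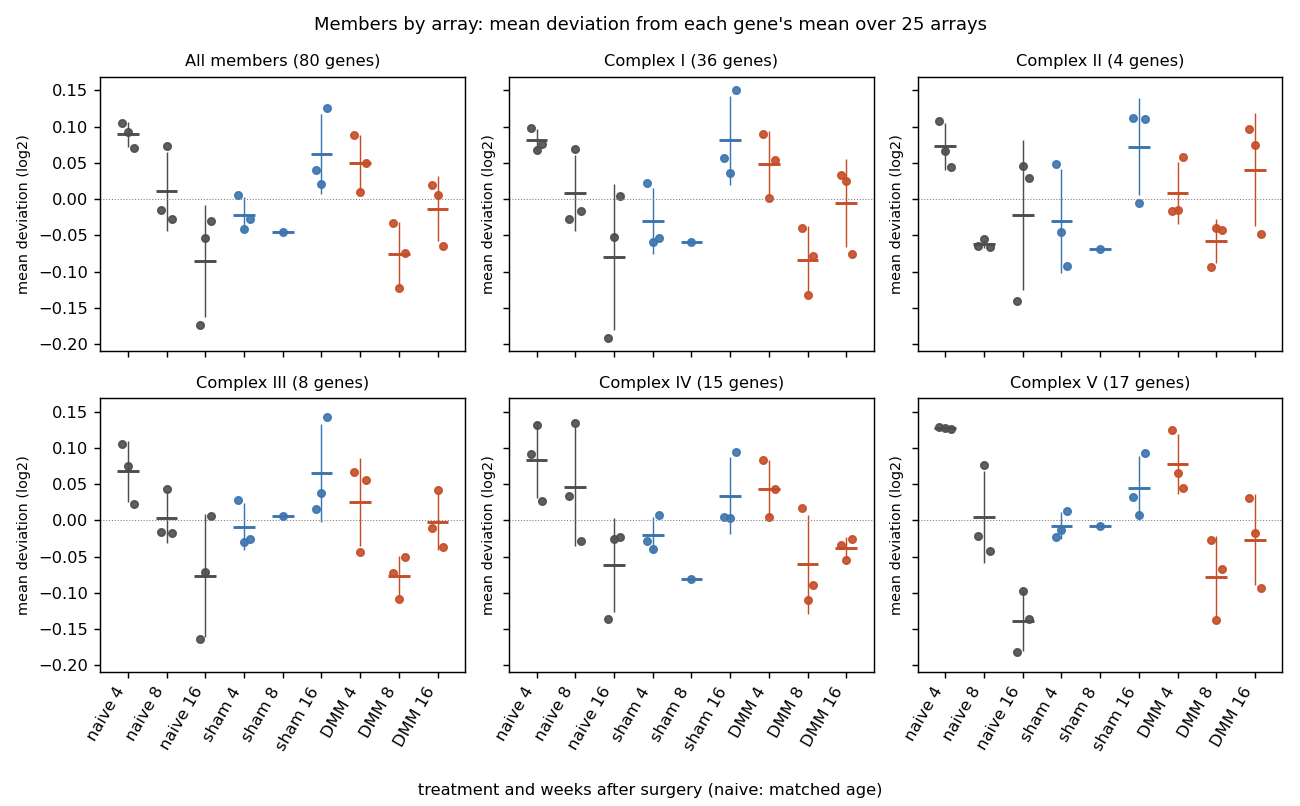
Mean deviation of the tested subunit genes from each gene's own mean over 25 arrays (vertical axis, log2), for all 80 members and for each complex, by treatment and weeks after surgery. Points are arrays, horizontal bars group means and vertical lines 1 SD (n = 3, or 1 for sham mice at 8 weeks). In the panel of all members, the naive arrays at 4 weeks lie between 0.071 and 0.10 and those at 16 weeks between -0.17 and -0.030.

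A single test for any difference among the 9 groups was passed by 11 of 80 members, beside 10.8% of all genes tested. They were Ndufs7, Ndufb4b and Ndufb9 of complex I, Cox6a1, Cox7a1 and Cox7a2 of complex IV, and Atp5l, Atp5l2, Atp5mpl, Atp5md and Atp5pb of complex V. No member of complexes II and III passed. The share of members is close to the background, so this test does not set the members apart.

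**Figure D2:**
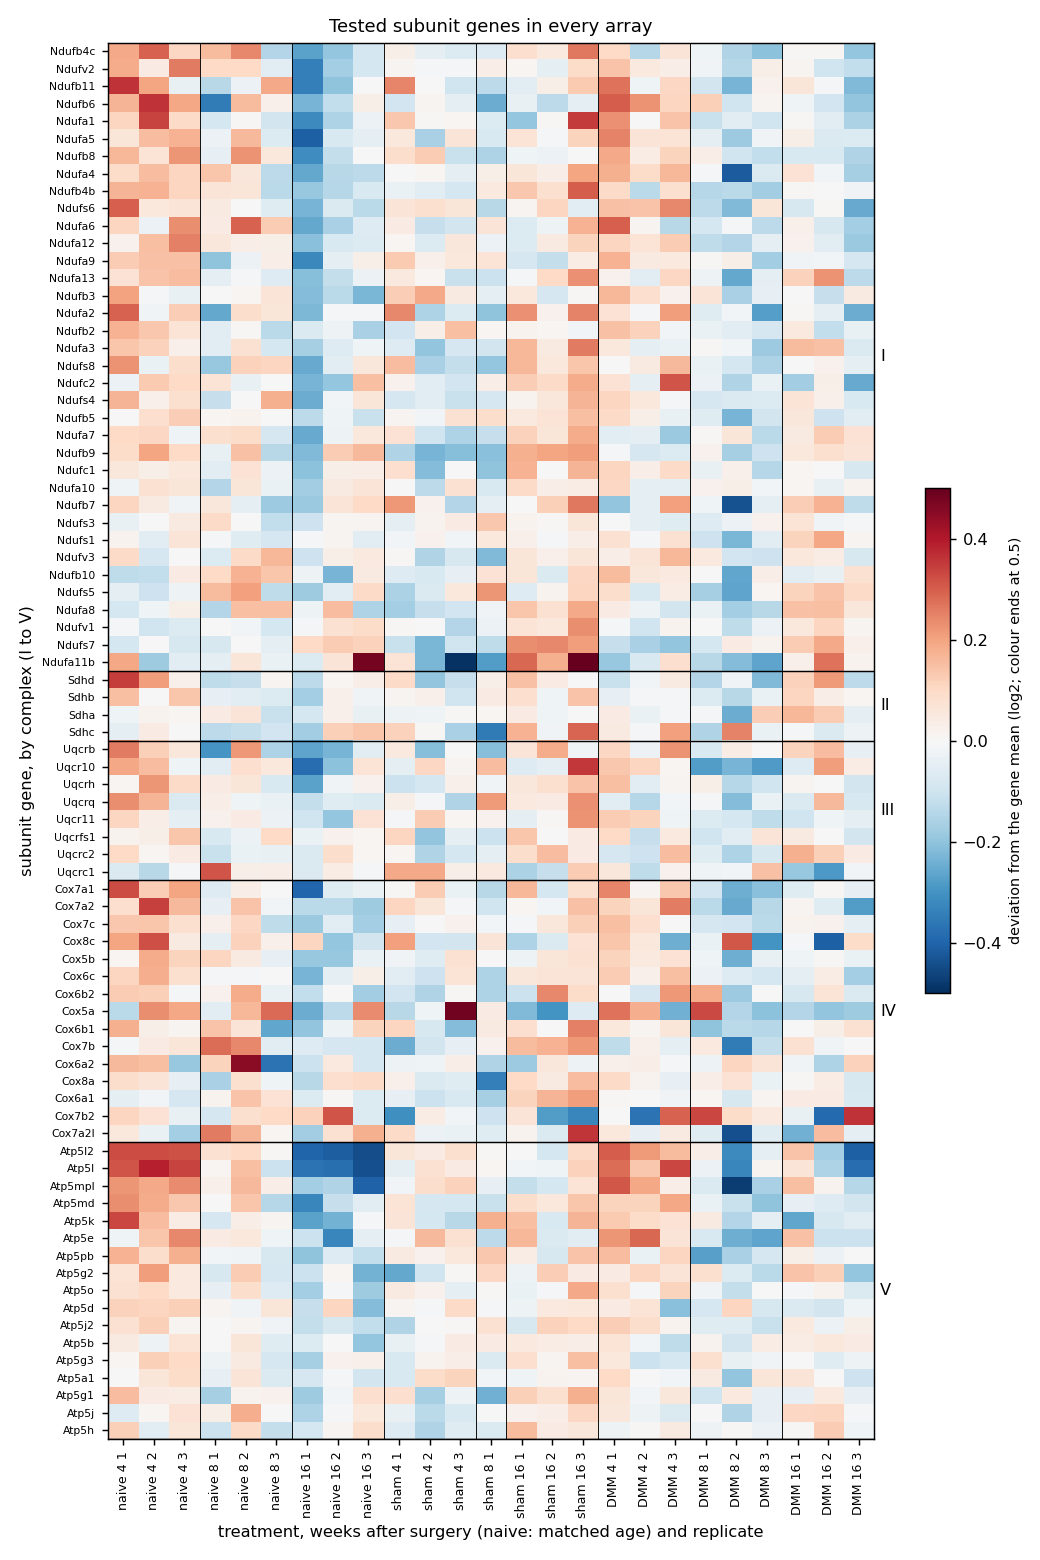
Each tested subunit gene (rows, by complex and ordered within a complex by its change in naive mice) in each of the 25 arrays (columns), coloured by the deviation from the gene's mean over all arrays on the log2 scale, from blue (lower) to red (higher), with the colour scale ending at 0.5. Of 2000 values, 1 lies beyond it. The columns of naive mice at 4 weeks are mostly red. Those of naive mice at 16 weeks have mean deviations of -0.17, -0.054 and -0.030. Replicate 3 of that group lies above the gene means in complexes I (0.0037), II (0.029) and III (0.0055), and replicate 2 in complex II (0.046).

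In naive mice, 29 of 80 members fell between 4 and 16 weeks, that is between 14 and 26 weeks of age, and 1 rose. Across all genes tested 12.7% fell and 6.08% rose. The median difference of the members was -0.18, against -0.067 over all genes, and 70 of 80 members were lower. The falls ran from 0.18 to 0.74 on the log2 scale, and in 28 of the 29 genes the arrays of the groups did not overlap, which the choice of called genes favours. Over all 80 members, 36 were lower with no overlap (45%), beside 26.2% of all genes. At an unadjusted p under 0.05, 40 members were lower and 1 was higher (limma), beside 22.7% and 10.5% of all genes. Among 5696 genes of the brightness of the middle members (8.42 to 12.6), 15.8% fell, and 15 of 40 members in that range did. By complex, 14 of 36 tested genes fell in complex I, 0 of 4 in complex II, 1 of 8 in complex III, 5 of 15 in complex IV and 9 of 17 in complex V.

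Within complex V, the ATP synthase, the genes were grouped by place in the enzyme after their values were seen, so the counts are a description. All 6 genes of the accessory subunits in the membrane fell (Atp5j2, Atp5k, Atp5l, Atp5l2, Atp5md, Atp5mpl), with a median of -0.40. Atp5l and Atp5l2 are counted as 2 genes here but may be 1 observation, as set out below. Atp5j2 kept its call in 9 and Atp5k in 13 of 16 alternatives run, and the others in all 16. Of 4 genes of the peripheral stalk, which holds the catalytic head still, Atp5pb and Atp5o fell. Of 4 genes of the F1 part, which holds the catalytic head and a central stalk, 1 fell, Atp5e of that stalk. Atp5a1 and Atp5b of the head did not pass. Of the 3 c-ring genes, a part of the rotor, 0 fell (limma), with values of -0.22 to -0.11.

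Atp5mpl, a small proteolipid bound to the membrane part (chromosome 12, 111961374 to 111967009, GRCm38.p6), stood at 15.01, 14.98 and 15.03 in the naive group at 4 weeks and at 14.62, 14.64 and 14.39 at 16 weeks. All older arrays were below all younger ones, and the difference was -0.46 ± 0.10 (adjusted p = 0.00454). The 8 week arrays lay between, at 14.82, 14.96 and 14.83. Atp5md, a subunit that helps ATP synthase dimers assemble (chromosome 19, 47083471 to 47090647), read 15.18, 15.13 and 15.08 at 4 weeks and 14.61, 14.83 and 14.89 at 16 weeks in naive mice, a difference of -0.35 ± 0.08 (adjusted p = 0.00416). The sets did not overlap. Atp5pb, the b subunit of the stalk (chromosome 3, 105942698 to 105959263), read 10.75, 10.66 and 10.75 at 4 weeks against 10.37, 10.51 and 10.45 at 16 weeks. It differed by -0.28 ± 0.06 (adjusted p = 0.0065), again with no overlap.

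The largest falls were those of the probe sets named Atp5l and Atp5l2, for subunit g. Atp5l read 13.48, 13.55 and 13.50 in the naive group at 4 weeks and 12.79, 12.78 and 12.72 at 16 weeks, a difference of -0.74 ± 0.10 (adjusted p = 0.000242). Atp5l2, a gene with a sequence close to it, also differed by -0.74 ± 0.10 (adjusted p = 0.000247). The arrays may not tell these apart, so they are best read as 1 observation. The Atp5l probe set lies on chromosome 5 while the gene lies on chromosome 9 (44913248 to 44920742). Of the probe sets at the gene's own place, 1 was under the brightness limit, and the other, dimmer than the main one, read 7.91, 7.82 and 8.00 at 4 weeks and 7.31, 7.45 and 7.35 at 16 weeks, a difference of -0.54 with no overlap. The same doubt about place holds for Atp5g2, whose probe set lies on chromosome 7 and whose gene lies on chromosome 15. A slightly dimmer Atp5g2 probe set on chromosome 15 differed by -0.27 in naive mice, against -0.22 for the one used.

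In complex I the catalytic core and the accessory shell were set apart in the same way, after the values were seen. Of 6 core genes measured 1 fell, Ndufv2, and 1 rose, Ndufs7, with a median of -0.026. Of 30 accessory genes tested 13 fell and 0 rose (limma), with a median of -0.21. Ndufv2, an iron-sulfur subunit of the NADH-oxidizing arm (chromosome 17, 66078795 to 66101559), read 11.09, 10.94 and 11.16 in the naive group at 4 weeks and 10.56, 10.73 and 10.81 at 16 weeks. The groups were apart and the difference was -0.36 ± 0.07 (adjusted p = 0.00293). Among accessory genes, Ndufb11 differed by -0.35 ± 0.12 (adjusted p = 0.0493) with overlapping arrays, Ndufb6 by -0.35 ± 0.10 (adjusted p = 0.0221) and Ndufa1, on the X chromosome, by -0.35 ± 0.11 (adjusted p = 0.0286). Ndufb4c and Ndufb4b, which carry the sequence of Ndufb4 at other places in the genome, differed by -0.38 ± 0.10 and -0.29 ± 0.07 (adjusted p = 0.011 and 0.00797). Ndufb4 itself shared its probe set with other symbols and is not among the members, so which copy was measured is uncertain. Ndufa4, named as a complex I subunit but known to sit in complex IV, differed by -0.29 ± 0.09 (adjusted p = 0.0301).

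In complex IV the members are the nuclear-encoded subunits around the mitochondrially encoded core. Cox7c (chromosome 13, 86044798 to 86046795) read 9.18, 9.18 and 9.12 in the naive group at 4 weeks and 8.86, 8.99 and 8.87 at 16 weeks. It fell by 0.25 ± 0.06 on the log2 scale (adjusted p = 0.00702), with no overlap. Both forms of subunit 7a fell: Cox7a2, the form of most tissues, by 0.35 ± 0.08 (adjusted p = 0.00696) and Cox7a1, the form known from heart and muscle, by 0.38 ± 0.09 (adjusted p = 0.0076). Cox7a1 read 7.74, 7.54 and 7.61 at 4 weeks and 7.02, 7.36 and 7.38 at 16 weeks in naive mice. Cox5b and Cox6c completed the 5 genes of complex IV that fell, by 0.24 ± 0.07 and 0.21 ± 0.07.

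The other tissue-specific forms gave little signal. Cox6a2, the muscle form of subunit 6a, had a mean of 5.37 over all arrays, and Cox6b2, known from testis, had one of 5.64. Cox7b2 (4.76) and Cox8c (4.91) were below 5.35, the highest array median of the negative controls, so their differences carry little information. Their common counterparts Cox6a1 (16.4), Cox6b1 (15.5), Cox7b (12.3) and Cox8a (15.7) were far above it. In naive mice from 4 to 16 weeks, Cox6a1 differed by 0.0044 ± 0.051, Cox6b1 by -0.11 ± 0.10, Cox7b by -0.11 ± 0.09 and Cox8a by -0.023 ± 0.071, and none of these passed.

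In complex III, Uqcrb, which binds ubiquinone near the enzyme's core, was the gene that fell. It read 14.64, 14.50 and 14.43 at 4 weeks and 14.12, 14.15 and 14.32 at 16 weeks, a difference of -0.33 ± 0.11 (adjusted p = 0.0413). The 3 core and iron-sulfur genes Uqcrc1, Uqcrc2 and Uqcrfs1 lay between -0.064 and 0.060. Uqcr10, the complex III gene with the largest SD over arrays, differed by -0.28 ± 0.11 (adjusted p = 0.0799). In complex II, Sdhd, a membrane anchor, differed by -0.22 ± 0.10 (adjusted p = 0.116), and Sdhb, the iron-sulfur subunit, by -0.15 ± 0.06 (adjusted p = 0.099).

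Of the 29 genes that fell, Atp5l, Atp5l2, Atp5md, Atp5mpl, Atp5pb, Cox7c and Ndufv2 passed the threshold under all 16 alternatives run for this comparison. The total is less settled: without naive replicate 1 at 16 weeks 9 members passed, all 9 among the 30. Without naive replicate 1 or 2 at 4 weeks 17 and 18 passed, and with only the 6 arrays compared in the fit 13 passed. Without naive replicate 1 at 16 weeks the members' median was -0.13 against -0.053 over all genes, and 26 were lower at an unadjusted p under 0.05 (limma), beside 17.8% of all genes.

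**Figure D3:**
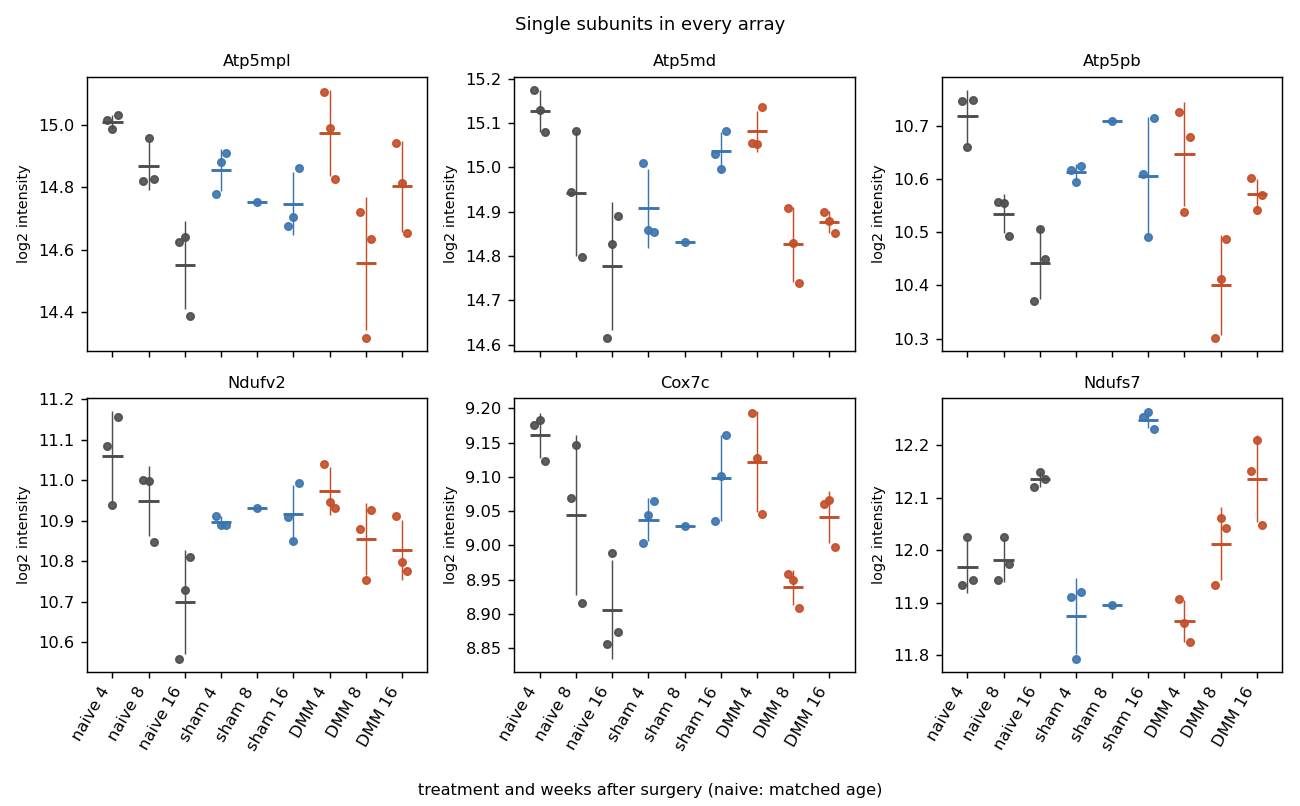
Deposited log2 intensity (vertical axes, each on its own range) of 6 subunit genes in every array, by treatment and weeks after surgery. Horizontal bars are group means and vertical lines 1 SD (n = 3, or 1 for sham mice at 8 weeks). Atp5mpl, Atp5md, Atp5pb, Ndufv2 and Cox7c are lower in naive mice at 16 than at 4 weeks, and Ndufs7 is higher at 16 than at 4 weeks in all 3 treatments.

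In sham mice the same interval gave another picture: 3 of 80 members rose and 0 fell between 4 and 16 weeks, beside 0.928% and 0.834% of all genes tested. At an unadjusted p under 0.05 the numbers were 14 higher and 0 lower (limma), beside 10.3% and 8.19% of all genes. The median difference was 0.090 against 0.0091 over all genes, and 61 of 80 members were higher. That median depended on the scaling between arrays and was 0.0028 after quantile normalization. Ndufb9, an accessory subunit of complex I (chromosome 15, 58933801 to 58939516), read 15.96, 15.88 and 15.90 at 4 weeks and 16.29, 16.31 and 16.32 at 16 weeks. It rose by 0.39 ± 0.08 (adjusted p = 0.0293) with no overlap. Cox6a1, a subunit at the dimer face of complex IV, read 16.34, 16.27 and 16.30 at 4 weeks and 16.49, 16.55 and 16.59 at 16 weeks. It rose by 0.24 ± 0.05 (adjusted p = 0.0293), also without overlap. These calls were lost in 9 of 16 alternatives each, and with only the 6 arrays compared in the fit 0 members passed.

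In DMM mice 1 member rose and 1 fell between 4 and 16 weeks, beside 1.08% and 1.8% of all genes tested. The median was -0.065 against -0.020 over all genes. Without adjustment 2 members were higher and 12 lower (limma), beside 7.88% and 10.5% of all genes. The gene that fell was Atp5l, from 13.44, 13.29 and 13.49 to 13.22, 13.01 and 12.78, a difference of -0.40 ± 0.10 (adjusted p = 0.0362). The call was lost with the probe set at the gene's own place, where the difference was -0.11. Scaling mattered here: 0 rose and 9 fell after quantile normalization, and 1 rose and 3 fell after cyclic loess. Of the 29 genes that fell in naive mice, all 29 were lower in DMM mice at 16 than at 4 weeks, with 1 past the threshold, and 12 were lower in sham mice, with 0 past it. Of all 2579 genes that fell in naive mice, 85.9% were lower in DMM and 65.1% in sham mice. Without that choice, 70% of all members and 55.1% of all genes were lower in DMM mice. In sham mice 23.8% of all members and 47.4% of all genes were lower. The shares of the fallen genes describe genes chosen for falling in naive mice. The difference between members and other genes was not tested.

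Ndufs7 was the member that rose in each treatment. It encodes the core subunit that carries the last iron-sulfur cluster before ubiquinone (chromosome 10, 80249105 to 80256794). At 4 weeks it read 11.93, 12.03 and 11.94 in naive, 11.91, 11.79 and 11.92 in sham and 11.91, 11.86 and 11.83 in DMM mice. At 16 weeks it read 12.12, 12.15 and 12.14 in naive, 12.25, 12.26 and 12.23 in sham and 12.15, 12.21 and 12.05 in DMM mice. All 9 arrays at 16 weeks (12.05 to 12.26) were above all 9 arrays at 4 weeks (11.79 to 12.03). The 7 arrays at 8 weeks (11.90 to 12.06) overlapped both. The rise was 0.17 ± 0.05 in naive (adjusted p = 0.0375), 0.37 ± 0.05 in sham (adjusted p = 0.00649) and 0.27 ± 0.05 in DMM mice (adjusted p = 0.0124). These 3 comparisons share no array. Of 16 alternatives, the call was kept in 8 for naive, 15 for sham and 12 for DMM mice.

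**Figure D4:**
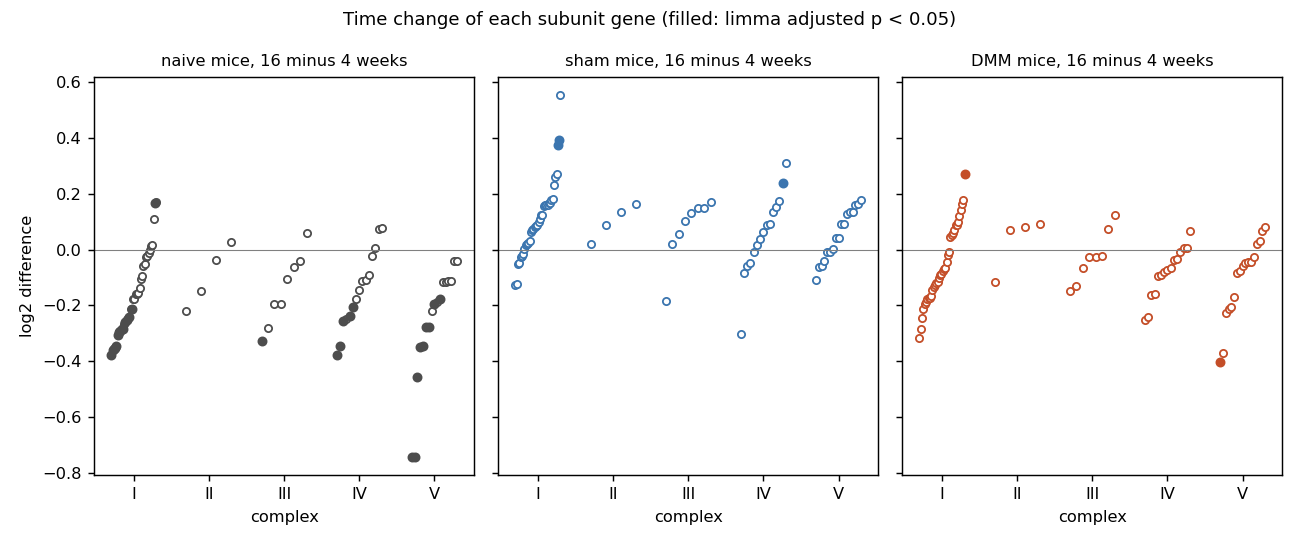
Difference between 16 and 4 weeks (vertical axis, log2) of each of the 80 tested subunit genes, by complex, in naive, sham and DMM mice. Each point is 1 gene, and filled points passed limma's adjusted threshold of 0.05. In naive mice 29 filled points lie below 0 and 1 above, against 0 and 3 in sham mice and 1 and 1 in DMM mice.

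Whether the change over time differed between treatments was tested directly. The comparison of the sham with the naive change was added after the data had been seen. In it 7 of 80 members passed and all 7 were higher in sham mice, beside 1.91% of all genes tested in that direction and 0.183% in the other. The median was 0.27 against 0.067 over all genes. Without adjustment 48 were higher and 0 lower (limma), beside 14.9% and 5.21%. The count depended on the processing: 2 passed after cyclic loess (median 0.17), 1 after quantile normalization (median 0.21) and 15 with array weights. The 7 were Ndufb4b, Ndufb4c, Ndufa3 and Ndufb9 of complex I and Atp5l, Atp5l2 and Atp5md of complex V. Atp5md changed by 0.13 in sham and -0.35 in naive mice, a difference of 0.48 ± 0.11 (adjusted p = 0.0266). Ndufa3, an accessory subunit, changed by 0.27 in sham and -0.18 in naive mice, a difference of 0.45 ± 0.11 (adjusted p = 0.0345). With the copies Atp5l2, Ndufb4b, Ndufb4c and Ndufa11b left out, 4 members passed. Leaving out naive replicate 1 at 4 weeks, naive replicate 1 at 16 weeks, sham replicate 2 or 3 at 4 weeks or sham replicate 3 at 16 weeks left 3, and leaving out sham replicate 1 at 16 weeks left 4. For the change in DMM against that in naive mice 0 members passed, beside 0.00494% of all genes higher and 0% lower. At an unadjusted p under 0.05, 12 were higher and 0 lower (limma), beside 7.77% and 2.81% of all genes, and the median was 0.12 against 0.039 over all genes. It was 0.041 against 0.0055 after cyclic loess, and 0.072 against 0.030 without naive replicate 1 at 16 weeks, where 5 were higher unadjusted (limma). Both tests use the same naive arrays.

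Sham against naive mice at a fixed time gave 0 members past the threshold. At 4 weeks, where 0.0494% of all genes were higher and 0.281% lower, 72 of 80 members were lower, with a median of -0.12 against -0.047 over all genes. At an unadjusted p under 0.05, 1 member was higher and 16 were lower (limma), beside 4.7% and 11.2% of all genes. Ndufb9 came nearest, at 15.96, 15.88 and 15.90 in sham and 16.20, 16.31 and 16.21 in naive mice, a difference of -0.33 ± 0.08 (adjusted p = 0.0748). At 16 weeks, where 0.00494% of all genes were higher and 0% lower, 76 of 80 members were higher, with a median of 0.16 against 0.020. Here 34 members were higher and 0 lower at an unadjusted p under 0.05 (limma), beside 8.53% and 2.23% of all genes. Ndufb4b read 14.96, 14.90 and 15.13 in sham and 14.63, 14.68 and 14.75 in naive mice, a difference of 0.31 ± 0.07 (adjusted p = 0.21). Cox6a1 differed by 0.21 ± 0.05 (adjusted p = 0.219). The groups did not overlap for either gene. The median became 0.081 after quantile normalization, 0.097 after cyclic loess and 0.11 without naive replicate 1, where 13 members were higher unadjusted (limma). These comparisons share their arrays with the changes over time above and are no separate evidence.

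No member passed the threshold between DMM mice and either control at any time tested with limma. Against naive mice at 4 weeks 0 members passed, beside 0.00494% of all genes in each direction. The unadjusted counts were 0 higher and 3 lower (limma), beside 2.28% and 6.53%, and the median was -0.039 against -0.030. Sdhd had the smallest p, with a difference of -0.22 ± 0.10 (adjusted p = 0.525), followed by Ndufb9 at -0.18 ± 0.08 and Uqcrq at -0.18 ± 0.09. At 8 weeks 0 members passed, beside 0.00987% of all genes higher and 0.0395% lower. Of 80 members 68 were lower; their median was -0.080 against -0.0013, and 0 were higher and 14 lower at an unadjusted p under 0.05 (limma), beside 3.14% and 5.35% of all genes. Cox7b, a complex IV subunit on the X chromosome, read 12.38, 11.98 and 12.21 in DMM and 12.61, 12.57 and 12.28 in naive mice, a difference of -0.30 ± 0.09 (adjusted p = 0.263) with overlapping arrays. Atp5mpl differed by -0.31 ± 0.10 (adjusted p = 0.328) with no overlap, and Ndufb10 by -0.21 ± 0.08.

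At 16 weeks DMM mice had 0 members past the threshold against naive mice, beside 0.0148% of all genes higher and 0% lower. Here 69 of 80 members were higher, with a median of 0.073 against 0.0089, and 12 were higher and 0 lower at an unadjusted p under 0.05 (limma), beside 5.43% and 3.38% of all genes. Without naive replicate 1 the median was 0.034 against 0.00058, with 3 higher and 0 lower unadjusted (limma). The members of smallest p were Atp5l2 (0.27 ± 0.10, adjusted p = 0.498), Atp5mpl (0.25 ± 0.10) and Atp5l (0.24 ± 0.10). Averaged over the 3 times, DMM against naive mice gave 0 members past the threshold, 0 at an unadjusted p under 0.05 in either direction (limma, beside 3.04% higher and 4.28% lower), and a median of -0.013 against -0.0090. Of all genes, 0.0148% were higher and 0.0296% lower in that average. Cox7b (-0.093 ± 0.051, adjusted p = 0.723), Ndufb4c (-0.092 ± 0.056) and Cox7a2l (-0.11 ± 0.07) had the smallest p. The 95% intervals of this average reached a median of 0.098 to each side and at most 0.31 from 0. That bounds the average only. Single times leave room for more: at 16 weeks the interval of Uqcrb reached 0.49.

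Against sham mice, DMM mice had 0 members past the threshold at 4 weeks, beside 0% of all genes in each direction, with 5 higher and 0 lower at an unadjusted p under 0.05 (limma; 3.12% and 1.56% of all genes). At 16 weeks it was 0 members again, beside 0.00494% higher and 0% lower, with 0 higher and 6 lower unadjusted (limma; 1.76% and 4.68%). The medians were 0.074 and -0.078, against 0.010 and -0.013 over all genes. At 4 weeks Ndufb6 (0.26 ± 0.10), Ndufv3 (0.16 ± 0.07) and Atp5md (0.17 ± 0.08) had the smallest p, each with an adjusted p of 0.986. At 16 weeks these were Cox6a1 (-0.16 ± 0.05, adjusted p = 0.668), Ndufc2 (-0.27 ± 0.10) and Ndufb4b (-0.18 ± 0.07). With 1 sham array at 8 weeks there is no test of DMM against sham mice at that time.

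**Figure D5:**
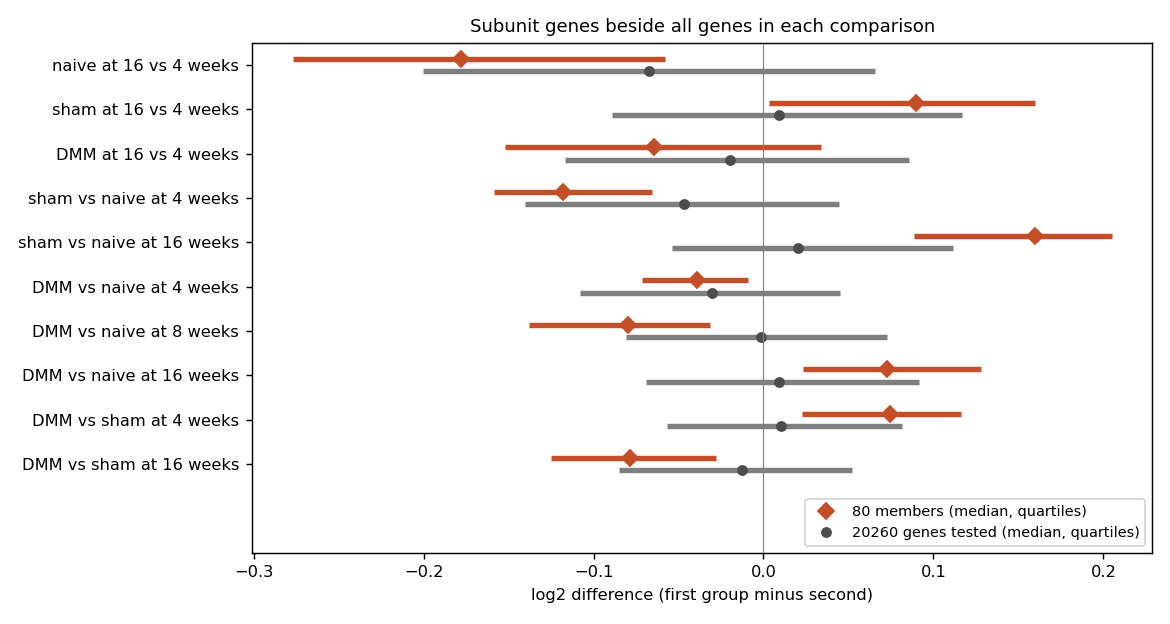
Difference of the first group minus the second (horizontal axis, log2) in 10 comparisons. Diamonds and thick lines are the median and quartiles of the 80 subunit genes, and grey circles and lines those of the 20260 genes tested. The members' median lies to the left of all genes in naive mice at 16 against 4 weeks (-0.18 and -0.067) and to the right in sham against naive mice at 16 weeks (0.16 and 0.020).

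The steps through 8 weeks were also read. In DMM mice, 8 against 4 weeks gave 0 members past the threshold, beside 0% of all genes higher and 0.0197% lower. Of 80 members 68 were lower; their median was -0.13 against -0.025, and 1 was higher and 23 were lower at an unadjusted p under 0.05 (limma), beside 3.88% and 8.08% of all genes. Atp5mpl fell short of the threshold at -0.42 ± 0.10 (adjusted p = 0.106): it read 15.10, 14.99 and 14.83 at 4 weeks and 14.72, 14.32 and 14.63 at 8 weeks. Atp5e differed by -0.39 ± 0.09 (adjusted p = 0.106) and Cox7a2 by -0.32 ± 0.08 (adjusted p = 0.111), both with no overlap. In naive mice, 8 against 4 weeks gave 0 members past the threshold, beside 2.01% of all genes higher and 4.27% lower, with 3 higher and 12 lower unadjusted (limma; 6.82% and 16.6%). For naive mice at 16 against 8 weeks it was 0 members, beside 0% and 0.0197%, with 1 higher and 18 lower unadjusted (limma; 4.71% and 7.15%). For DMM mice at 16 against 8 weeks it was 0 members, beside 0% in each direction, with 11 higher and 1 lower unadjusted (limma; 6.5% and 4.9%). The last 3 comparisons were added after the data had been seen.

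Other genes of the pathway were read for the naive change from 4 to 16 weeks. Of the 13 subunits encoded in the mitochondrial genome, 5 were measured, and 2 of them fell: ND3 by 0.28 ± 0.06 (adjusted p = 0.00377) and ND6 by 0.51 ± 0.13 (adjusted p = 0.00966). ND6 lies on the other strand of that genome from most of its genes, and whether the probes tell the strands apart was not tested. COX1 (-0.095 ± 0.055), COX2 (-0.066 ± 0.072) and ND2 (-0.027 ± 0.064) did not pass. Of 12 electron carriers and subunits that the symbols miss, 1 rose, Ndufab1, the acyl carrier of complex I, by 0.17 ± 0.05 (adjusted p = 0.0256). Ndufa4, which is also a member, was the 1 that fell. Ndufab1 also rose in sham mice (0.22 ± 0.05, adjusted p = 0.038) and in DMM mice (0.22 ± 0.05, adjusted p = 0.0271).

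Assembly factors, which build the complexes, changed in naive mice in shares to be read against the 12.7% of all genes that fell and the 6.08% that rose. Of 16 for complex I, 1 fell (Ndufaf1, -0.27 ± 0.07). Of 12 for complexes II, III and V, 2 fell, Sdhaf1 and Tmem70, the latter an ATP synthase assembly factor (-0.44 ± 0.08, adjusted p = 0.00194). Of 18 for complex IV, 1 rose (Cox15, a heme synthesis enzyme, 0.33 ± 0.09) and 3 fell (Coa3, Pet100, Cmc1). None of 13 regulators of mitochondrial biogenesis passed (limma). Ppargc1b had the smallest p (0.20 ± 0.08, adjusted p = 0.101), and Ppargc1a, Nrf1 and Tfam differed by 0.18 ± 0.16, 0.12 ± 0.06 and -0.085 ± 0.062. Among 16 citric acid cycle genes 1 rose (Mdh2) and 1 fell (Dld). Among 14 glycolytic genes 3 rose (Pfkm, Aldoa, Aldoc) and 2 fell (Tpi1, Pgk1). Among 10 genes of uncoupling and peroxide defence 1 rose (Slc25a27) and 2 fell (Slc25a14, Prdx3). Prdx3, the mitochondrial peroxidase, differed by -0.43 ± 0.09 (adjusted p = 0.00349).

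Ribosomal protein genes were read beside them. Of 79 mitochondrial ones 6 fell (Mrpl12, Mrpl24, Mrpl47, Mrpl54, Mrps7, Mrps24) and 0 rose (limma), a share below the 12.7% of all genes, with a median of -0.069 against -0.067. Of 49 genes with symbols of cytosolic ribosomal proteins 21 fell and 0 rose (limma), with a median of -0.17, and Rpl39 differed by -0.57 ± 0.08 (adjusted p = 0.000242). The symbol search also takes in genes that are not ribosomal proteins. Rps19bp1 is one, and symbols of the Rps6k kinases match it too, so the 49 are a mixed list. At 16 weeks 43 of these 49 genes were higher in sham than in naive mice, with a median of 0.14. This mixed list thus had a median close to that of the subunit genes, and no test set the groups against each other.

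Markers of other cells also moved between the same arrays. All 15 macrophage markers were lower in naive mice at 16 than at 4 weeks, 9 of them past the threshold, with a median of -0.56. Csf1r, the receptor for the macrophage growth factor, differed by -0.68 ± 0.11 (adjusted p = 0.000434). The mean level of the list ran from 7.19 to 7.55 on the naive arrays at 4 weeks and from 6.66 to 6.81 at 16 weeks. In sham mice it ran from 6.66 to 6.96 and from 6.92 to 7.09, and in DMM mice from 7.11 to 7.26 and from 7.08 to 7.31. Fibroblast and meningeal markers had a median of -0.41 in naive mice, 0 of 12 past the threshold (limma), and ran from 9.06 to 9.12 at 4 weeks and from 8.51 to 9.06 at 16 weeks. Of 9 myelinating Schwann cell markers 1 fell (Pmp2, -1.91 ± 0.43), of 7 satellite glia markers 2 fell (Fabp7, Ednrb), and of 5 fat cell markers tested 1 fell (Car3, -2.23 ± 0.40). Of 16 sensory neuron markers 1 rose (Rbfox3) and 2 fell (Tubb3, Prph), with a median of -0.0068 and a list mean of 14.70 to 14.81 at 4 weeks and 14.71 to 14.74 at 16 weeks. Of 12 muscle markers tested 0 passed (limma), with a median of -0.078. Of 3 erythroid markers tested 0 passed (limma), and of 13 endothelial and mural markers 1 rose (Pdgfrb) and 0 fell. The part of these cells in the subunit result was not tested.

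The promoters were searched for the motifs of the shared activators, as background to genes that move together. A RefSeq promoter (GRCm38.p6, from 250 bases before the start of transcription to 50 after it) was found by Entrez ID or symbol for 66 of the 82 members. Of these, 21.2% held the NRF-1 letters (GCGC, any 1 base, TGCGC) on either strand, against 5.19% of 27025 genes. The ETS letters CCGGAAG were in 25.8% against 9.93%, the YY1 letters AAGATGGC in 15.2% against 3.19%, and the ERR letters TNAAGGTCA in 3.03% against 1.43%. Among the 24 members with a promoter that fell in naive mice the shares were 16.7%, 20.8%, 20.8% and 0%. Among the other 42 they were 23.8%, 28.6%, 11.9% and 4.76%. A match describes these letters only. All 4 motifs were searched on both strands, and none contains another.

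The 250 bases before the start are printed for 4 genes that stand for the patterns above, with matches in capitals, 5′ to 3′ on the gene's strand. Atp5k (chr5:108434400-108434649, minus strand) fell in naive mice and holds 1 NRF-1 match in the printed bases, close to its start. An ETS match of its promoter lies outside the printed bases. Ndufb6 (chr4:40279422-40279671, minus strand) fell and holds 1 ETS match far from its start. Cox6a1 (chr5:115348959-115349208, minus strand) rose in sham mice and holds 2 NRF-1 matches and 1 ETS match. Ndufs7 (chr10:80249199-80249448, plus strand) rose in every treatment and holds no match in the printed bases, while a YY1 match of its promoter lies outside them. RefSeq places several Ndufs7 transcripts, and this stretch precedes the start of 1 of them and lies within the gene's full range.
Atp5k: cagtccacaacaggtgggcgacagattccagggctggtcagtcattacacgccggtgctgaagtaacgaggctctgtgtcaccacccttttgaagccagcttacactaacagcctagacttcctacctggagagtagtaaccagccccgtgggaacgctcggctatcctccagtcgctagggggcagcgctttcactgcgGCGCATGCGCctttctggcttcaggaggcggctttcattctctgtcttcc
Ndufb6: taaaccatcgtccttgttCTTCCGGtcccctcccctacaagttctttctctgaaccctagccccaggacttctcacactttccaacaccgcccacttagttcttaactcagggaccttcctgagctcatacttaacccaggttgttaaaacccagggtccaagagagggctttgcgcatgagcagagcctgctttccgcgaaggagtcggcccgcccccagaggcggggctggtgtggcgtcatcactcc
Cox6a1: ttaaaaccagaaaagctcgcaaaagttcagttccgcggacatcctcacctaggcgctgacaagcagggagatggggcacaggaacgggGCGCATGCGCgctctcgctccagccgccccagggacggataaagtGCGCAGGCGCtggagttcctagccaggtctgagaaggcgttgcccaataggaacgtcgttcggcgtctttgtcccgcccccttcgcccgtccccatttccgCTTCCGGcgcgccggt
Ndufs7: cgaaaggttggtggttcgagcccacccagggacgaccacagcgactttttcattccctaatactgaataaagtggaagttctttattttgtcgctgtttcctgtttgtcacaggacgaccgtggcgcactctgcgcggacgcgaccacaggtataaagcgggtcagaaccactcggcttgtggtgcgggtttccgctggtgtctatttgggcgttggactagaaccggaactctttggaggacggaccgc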

How the data were processed

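RNA of 25 lumbar ganglion samples was measured on Affymetrix arrays of 72685 probe sets, 6729 of them controls. The deposited values are log2 intensities with 1 value per probe set. The log2 scale was read from the values (2.23 to 19.7, array medians 4.88 to 4.97), and how the authors corrected background and normalized is not given in the sources used here. No further normalization was applied. For arrays, their number limits the precision.

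Symbols came from the platform's annotation and were updated by Entrez ID in 827 cases before the membership rule was applied. This brought in Ndufb4c and Ndufa11b and left out Dmac2, formerly Atp5sl. Probe sets with several symbols were left out, 4 of which name a member. The rule's letters also miss Cox4i1, Cox4i2 and Ndufab1. Of 82 members, 80 matched a RefSeq gene. Genes were tested when their mean over all arrays passed the 40th percentile of the transcript probe sets.

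Groups were taken from the labels. limma 3.58.1 (R 4.3.3) was fitted to all 25 arrays with 1 mean per group and eBayes (16 residual and 3.28 prior degrees of freedom), with Benjamini-Hochberg adjustment. On data simulated for the naive comparison of 16 with 4 weeks over 20260 genes, 22 of 100 genes shifted by 0.3 and 74 of 100 shifted by 0.6 were recovered, with 6 unshifted genes called. Of 30 members shifted by 0.3, 8 were recovered. Fewer genes were shifted than passed in the data, so the adjustment was stricter in the simulation. Its values were drawn independently for each gene, without the shifts common to all genes of an array. These counts therefore need not carry over to the data. Named genes were, per comparison, the members past the threshold, up to 10 of largest difference in each direction, or the 3 of smallest p where fewer than 3 passed. Per complex they were the brightest, the most variable over arrays and the nearest to the limit, to which the tissue isoforms were added. Per list they were the genes past the threshold, or else that of smallest p. The fixed rule's long lists are given by count. The members, lists and roles were chosen with earlier results of these data known.

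Equal replicate numbers were checked by the correlation of deviations from group means. All 3 pairs exceeded 0.1 only for sham and naive mice at 16 weeks (0.108, 0.224, 0.308), so that comparison was also read with the replicate block, although no label says what a number marks. Alternatives were no or a stricter brightness filter, cyclic loess, quantiles, array weights, a trended and robust prior, the mean of a gene's probe sets, a replicate block, only the arrays compared, and each array left out. The probe set on the gene's own chromosome and the set without copies were added after the data had been seen.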

Additional observations from a re-analysis of the deposited data

Results flagged for a closer look

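The change from 4 to 16 weeks differed between sham and naive mice for 7 members by a test of the difference itself, which was added after the data had been seen. In each the sham change was the higher. The difference was 0.52 for Ndufb4b (adjusted p = 0.012), 0.75 for Atp5l (adjusted p = 0.0124), 0.68 for Atp5l2 (adjusted p = 0.02), 0.48 for Atp5md (adjusted p = 0.0266), 0.45 for Ndufa3 (adjusted p = 0.0345), 0.50 for Ndufb9 (adjusted p = 0.0345) and 0.54 for Ndufb4c (adjusted p = 0.0455), all from limma. The count was 2 after cyclic loess, 1 after quantile normalization and 15 with array weights. Over 22 alternatives, Atp5l and Atp5l2 kept the call in 21 each and Ndufb4b in 20, while Ndufb4c kept it in 7 and Ndufb9 in 9. Atp5md kept it in 14 and Ndufa3 in 12. All macrophage markers were also higher in sham than in naive mice at 16 weeks (15 of 15, median 0.24), and all were lower at 4 weeks (median -0.56). Their part in the result was not tested.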

How the results depend on the processing

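For single members past the threshold in a comparison, no call was reversed in direction under the alternatives run. This holds for those calls only and not for the medians. The cause of the changes below was not tested. After cyclic loess, members past the threshold numbered 17 in naive mice at 16 against 4 weeks (median -0.12), 1 in sham (median 0.040), 4 in DMM, 2 for the sham against the naive change (median 0.17) and 6 for any difference, and the DMM against naive change had a median of 0.041. After quantile normalization they numbered 1 in sham (median 0.0028), 9 in DMM, 1 for the sham against the naive change (median 0.21), 4 in naive mice at 8 against 4 weeks (median -0.15) and 18 for any difference. The median of sham against naive mice at 16 weeks became 0.097 (loess) and 0.081 (quantiles). Array weights gave 7 in sham at 16 against 4 weeks, 15 for the sham against the naive change, 22 for any difference, 2 for sham against naive mice at 4 weeks, and 1 and 2 for naive mice at 8 against 4 and 16 against 8 weeks. With only the arrays compared, 13, 0 and 0 passed in naive, sham and DMM mice at 16 against 4 weeks. No brightness filter left 1 in DMM and 4 for the sham against the naive change. The stricter filter gave 5 in sham and 1 in naive mice at 8 against 4 weeks. The mean of probe sets and the probe set on the gene's own chromosome each left 1 in DMM, and leaving out copies left 4 for the sham against the naive change. The replicate block gave 6 for any difference and 1 for naive mice at 16 against 8 weeks, and changed no other count by more than 1.5 times, sham against naive mice at 16 weeks included. Leaving out 1 array at a time gave 9 to 28 in naive, 1 to 2 in sham and 0 to 3 in DMM mice at 16 against 4 weeks, 3 to 9 for the sham against the naive change and 4 to 14 for any difference (4, 5 and 7 without a naive array at 4 weeks). It gave 0 to 1 for DMM against naive mice at 8 and at 16 weeks, for naive mice at 16 against 8 weeks and for DMM mice at 16 against 8 weeks, and 0 to 3 for naive mice at 8 against 4 weeks. The median of sham against naive mice at 16 weeks ran from 0.11 to 0.17. With 3 arrays a group, the median 95% interval, before any adjustment, reached 0.17 to each side. Smaller differences of single genes were mostly not detectable, and after adjustment many larger ones may have been missed as well.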
